A study of Mus musculus with 5 samples.

Results

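The cells described are liver endothelial barcodes that carried RNA of Wnt2, Wnt9b or Rspo3. A barcode is the droplet tag that stands for 1 captured cell, and a unique molecular identifier (UMI) counts 1 captured RNA molecule. Members were barcodes with at least 1000 UMIs, at least 500 genes, under 30% mitochondrial UMIs, at least 3 of the 7 endothelial genes Stab2, Ptprb, Gpr182, Kdr, Egfl7, Clec4g and Oit3, no UMI of the leukocyte gene Ptprc, Alb under 5% of UMIs, and at least 1 UMI summed over Wnt2, Wnt9b and Rspo3. This gave 185 members among 462 endothelial barcodes and 104143 barcodes that met the depth and mitochondrial limits. Members were thus chosen by their measured UMIs of these 3 signal genes and of the gate genes, so those values describe them and support nothing. The other 277 endothelial barcodes, with 0 such UMIs, are called zero barcodes and served as the comparison.

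Single-cell RNA was counted in liver cells of C57BL/6J mice with a 10x v3 droplet kit, in 5 libraries with 1 library per group. The groups were postnatal day 14 (P14), an adult control, and adults sampled 24 h, 48 h or 96 h after surgery that took out a large part of the liver (partial hepatectomy, PHx). The treatment text gives 8 weeks as the age of the adults, the control among them, whose own age label says only adult. All cells came from perfused livers and passed a dead-cell removal step, and the labels name no transgene or further agent. That text also lists the adult control library among the operated animals, whereas its title and source name call it a control, so it is described under its title. Members numbered 16 in P14, 17 in the control adults, 84 at 24 h, 42 at 48 h and, at 96 h, 26, and zero barcodes 23, 62, 97, 24 and 71. With 1 library per group no difference between groups could be tested, and the intervals given are exact 95% intervals for counting error only.

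Wnt2 and Wnt9b are secreted ligands that act through Frizzled receptors and beta-catenin, and Rspo3 is a secreted R-spondin that strengthens the same signal by sparing those receptors from degradation. In the liver the endothelium of the central vein and of the neighbouring sinusoids is known as their main source, and the signal maintains the pericentral programme of hepatocytes. Thbd encodes thrombomodulin, an endothelial receptor for thrombin, and Kdr encodes the main vascular endothelial growth factor receptor.

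Library totals ran from 80927744 to 136110607 UMIs, and no member or zero barcode sequence was shared between libraries. Members were deeper than zero barcodes in every library, with median UMIs of 9697 against 2061 in P14, 4688 against 1748 in the adult control, 3170 against 1555 at 24 h, 4816 against 2487 at 48 h and, at 96 h, 4124 against 1601. A deeper barcode has more chances to show a UMI, so the classes were compared at matched depth. Xist, the RNA of the inactive X chromosome, was found in 15 of 16 P14 members and in none of the others, whereas Ddx3y, a Y-linked gene, had 0 UMIs in P14 members and 7, 65, 35 and 18 in the other 4 groups. Sex and the P14 group therefore cannot be told apart. A lane code in the labels likewise sets the adult control apart from the other 4 libraries, so the lane and the control cannot be told apart.

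Members as a class carried more endothelial RNA than the zero barcodes. All 7 endothelial gate genes were detected in 50% to 58.8% of members per library, against 11.3% to 30.4% of zero barcodes. UMIs of 14 further pan-endothelial genes (such as Pecam1, Cdh5 and Tie1) made up 0.593% to 0.889% of the members' UMIs and 0.0923% to 0.320% of those of zero barcodes, and 15 sinusoidal genes (such as Lyve1, Mrc1 and Fcgr2b) made up 0.720% to 1.38% and 0.186% to 0.528%. Because the gate used endothelial genes on both sides and members were deeper, these shares are a description. Some members went against the endothelial label. By limits set after seeing the values, at least 5% of UMIs from hepatocyte genes and under 0.1% from pan-endothelial genes, 12 members were hepatocyte-rich (0, 4, 3, 1 and 4 in P14, the adult control, 24 h, 48 h and 96 h), among them the deepest member of each library but P14. These deepest members held 10.1%, 9.75%, 9.64% and 7.18% hepatocyte UMIs, and 0.0638%, 0.0214%, 0.0104% and 0.0499% pan-endothelial UMIs. Thbd had a UMI in 7 of 17 adult control members and 75 of 84 at 24 h.

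Hepatocyte transcripts were the main RNA of another cell type in members, and complement RNA was also seen. As shares of non-mitochondrial UMIs, the 18 hepatocyte genes took 1.47%, 5.95%, 2.42%, 1.71% and 4.22% in members of P14, the adult control, 24 h, 48 h and 96 h, and 1.47%, 8.16%, 8.75%, 10.6% and 6.75% in zero barcodes. A single member held 2054 of the 4671 hepatocyte UMIs in the adult control, 4563 of 8308 at 24 h and 2793 of 4156 at 48 h. Without hepatocyte-rich barcodes the shares were 1.47%, 3.69%, 1.18%, 0.619% and 2.34% in members and 1.38%, 5.15%, 2.91%, 1.85% and 4.33% in zero barcodes. The free-RNA profile, taken from the 40000 barcodes ranked by UMIs after the first 20000, held 6.28% to 16.0% of these genes. In the adult control these barcodes had 1215 to 1435 UMIs, above the limit of 1000, so many of its 67862 barcodes among the 104143 were at free-RNA depth, and its shallowest members (1377, 1574 and 1590 UMIs) lay in or near that range. Lymphoid genes had 0 UMIs in the members of 4 libraries and 2 UMIs at 48 h, and 16 mesenchymal genes made up 0.00976% to 0.0165%. Of the macrophage genes, the complement gene C1qb had 12, 7, 174, 106 and 21 UMIs in members, C1qa 2, 1, 40, 23 and 3 and C1qc 0, 1, 23, 12 and 5, whereas Clec4f, Cd5l, Vsig4, Timd4, Marco, Adgre1 and Cd68 had 0. The part of complement RNA in the results below was not tested, and values without hepatocyte-rich barcodes are given beside the main calls and lists.

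At equal depth, the share of endothelial barcodes with a signal UMI was higher at 24 h and 48 h after PHx than in the adult control. Each barcode was thinned at random once to 2000 UMIs and shallower ones were left out. The share was then 30.8% (14.3% to 51.8%, 8 of 26) in P14, 24.3% (11.8% to 41.2%, 9 of 37) in the control adults and 56.7% (45.8% to 67.1%, 51 of 90) at 24 h. By 48 h it was 55.8% (39.9% to 70.9%, 24 of 43), and by 96 h 39.1% (25.1% to 54.6%, 18 of 46). The interval at 24 h lay above that of the adult control, while those of the adult control and 48 h overlapped slightly and those of P14 and 96 h widely. Thinning left out 13, 42, 91, 23 and 51 barcodes, and without it the shares were 41.0%, 21.5%, 46.4%, 63.6% and 26.8%. At 4000 UMIs the order changed, with P14 highest at 71.4% (10 of 14), ahead of 24 h (63.5%), 48 h (56.7%), 96 h (50%) and the adult control (40.9%). Hepatocyte-rich barcodes were unevenly spread, with 2 of 23, 33 of 62, 18 of 97, 8 of 24 and 30 of 71 among zero barcodes of P14, the adult control, 24 h, 48 h and 96 h. Without them, and with the same thinned counts, the shares were 32.0% (14.95% to 53.5%, 8 of 25) in P14, 32.1% (15.9% to 52.4%, 9 of 28) in the control adults and 68.0% (56.2% to 78.3%, 51 of 75) at 24 h. For 48 h that share was 70.6% (52.5% to 84.9%, 24 of 34), and for 96 h 44.1% (27.2% to 62.1%, 15 of 34). The expected shares over all possible thinnings were 37.2%, 25.3%, 52.8%, 52.6% and 33.3% with these barcodes and 38.7%, 31.6%, 63.2%, 66.3% and 41.0% without. The adult control share lay below those of 24 h and 48 h each time. Its interval slightly overlapped that of 48 h with hepatocyte-rich barcodes and fell just short of it without them. At 4000 UMIs the adult control rested on 22 barcodes, and no intervals but only shares are given there. Before thinning the shares without hepatocyte-rich barcodes were 43.2%, 31.0%, 50.6%, 71.9% and 34.9%.

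Leukocytes gave the background for these shares. In barcodes with Ptprc and at least 3 of 7 immune genes, a signal UMI was found at 2000 UMIs in 0 of 218 (P14), 2 of 928 (adult control), 3 of 552 (24 h), 1 of 1128 (48 h) and 0 of 630 (96 h). The counts of 0 allow shares of up to 1.38% and 0.476%, as 3 counts of the total. Before thinning these immune barcodes were deeper than the endothelial ones, with medians of 8484, 6023, 5299, 6283 and 4761 UMIs against 2800, 1811, 1989, 3529 and 1853. The endothelial share was far above the immune share in each library.

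**Figure D1:**
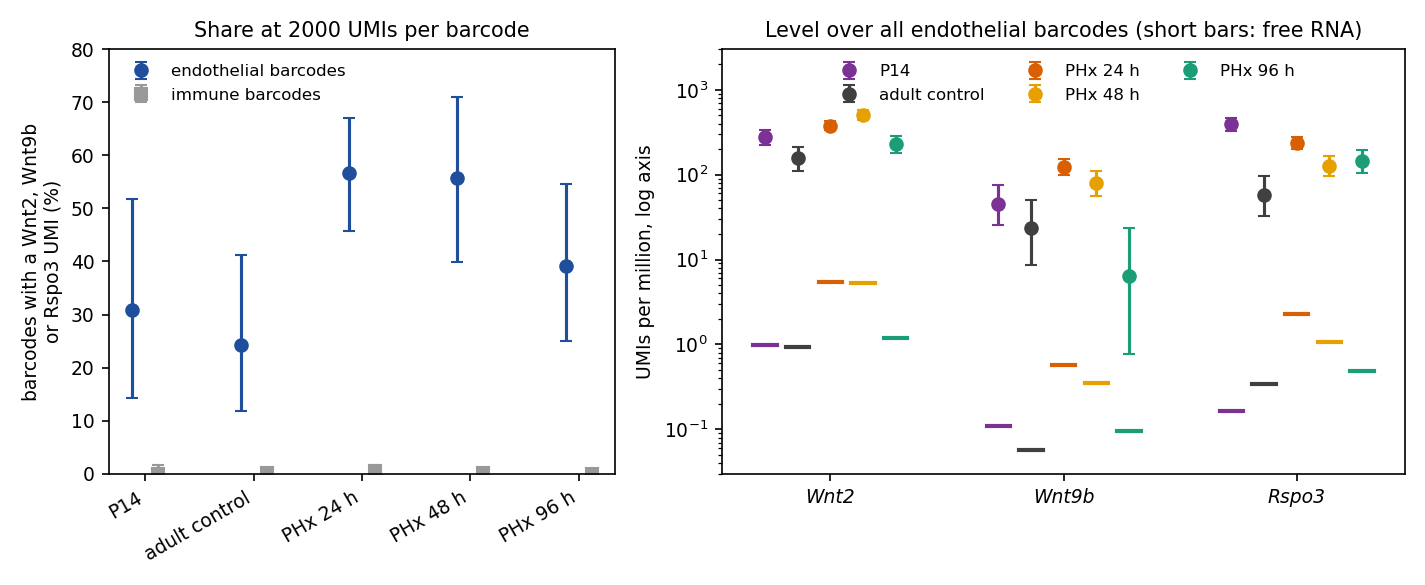
Left: percentage of endothelial and of immune barcodes with at least 1 UMI of Wnt2, Wnt9b or Rspo3 after thinning to 2000 UMIs, by library, with exact 95% intervals. Right: CPM (UMIs per 1000000 non-mitochondrial UMIs) of each gene over all endothelial barcodes, with exact Poisson 95% intervals, and the free-RNA level as short bars. Wnt2 is highest at 48 h (504) and Rspo3 in P14 (390), with hepatocyte-rich barcodes in the divisor.

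Wnt2 was the signal found in nearly all members. It had a UMI in 180 of the 185 members, Rspo3 in 53 and Wnt9b in 46. Summed over all endothelial barcodes, Wnt2 reached 275 UMIs per 1000000 non-mitochondrial UMIs (CPM) in P14 (222 to 338), 155 (111 to 211) in the control adults, 378 (333 to 427) at 24 h, 504 (441 to 574) at 48 h and, at 96 h, 228 (178 to 288). The levels at 24 h and 48 h lay above the adult control beyond counting error, and 48 h above 24 h, while the intervals of P14, the adult control and 96 h were not all separate. These levels are a description, since Wnt2 chose the members. Their divisor includes UMIs of hepatocyte-rich barcodes and of barcodes without an excess of endothelial UMIs, which were unevenly spread between libraries. Levels without such barcodes are not given, here or for Wnt9b and Rspo3, so their part in the order of libraries was not tested.

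Wnt9b and Rspo3 were rarer and their totals rested on few barcodes. Wnt9b stood at 45.4 CPM (25.4 to 74.8) in P14, 23.3 (8.54 to 50.6) in the control adults, 123 (98.3 to 152) at 24 h, 79.9 (56.0 to 111) at 48 h and, at 96 h, 6.43 (0.779 to 23.2), from 4, 1, 27, 12 and 2 barcodes. Rspo3 stood at 390 CPM (326 to 464) in P14, 58.2 (32.6 to 95.9) in the control adults, 236 (201 to 275) at 24 h, 127 (95.9 to 164) at 48 h and, at 96 h, 145 (106 to 194), from 5, 2, 31, 10 and 5 barcodes. A single barcode held 70 of the 129 Rspo3 UMIs in P14, 14 of 15 in the adult control and 31 of 45 at 96 h, against 39 of 163 at 24 h and 19 of 57 at 48 h. The P14, adult control and 96 h levels of Rspo3 are thus mostly those of 1 barcode each.

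Wnt9b and Rspo3 were often found in the same barcodes, and these also held Wnt2. Of the members, 115 had Wnt2 alone, 16 Wnt2 with Wnt9b, 20 Wnt2 with Rspo3 and 29 all 3 genes, while 1 had Wnt9b alone, 4 Rspo3 alone and 0 Wnt9b with Rspo3 without Wnt2. Members with Wnt9b or Rspo3 were deeper, with a median of 6636 UMIs against 2941 for Wnt2 alone. Among 140 endothelial barcodes thinned to 4000 UMIs, Rspo3 was found in 21 of 30 with Wnt9b and in 8 of 110 without, and in the same direction in each of the 5 libraries, although P14, the adult control and 96 h had only 2, 1 and 1 barcodes with Wnt9b. Members with Wnt9b or Rspo3 made up 37.5% of members in P14, 11.8% in the control adults, 48.8% at 24 h, 35.7% at 48 h and, at 96 h, 23.1%. Depth was not equal between libraries in these shares, and that of the adult control rests on 2 members. Of these, 1 was a hepatocyte-rich barcode of 20382 UMIs with 1 Rspo3 UMI.

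The threshold of 1 UMI mattered for many members. Those with exactly 1 signal UMI numbered 5, 7, 30, 11 and 10 in P14, the adult control, 24 h, 48 h and 96 h, and those with 2 or more 11, 10, 54, 31 and 16. Just inside it, members with 1 signal UMI had median depths of 2588, 2201, 1653, 1531 and 3868 UMIs, and just outside it zero barcodes had 2061, 1748, 1555, 2487 and 1601. The sides differed most at 48 h, where these members were shallower, and at 96 h, where they were deeper.

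Other Wnt and R-spondin ligands were nearly absent from these cells, while Wls and Fzd4 were detected. Of 21 other Wnt and R-spondin ligands only Wnt4 (1 UMI at 48 h) and Wnt5a (2 UMIs at 24 h) were seen in members. Wls, the carrier that brings Wnt proteins to the cell surface, was present in every group at 137, 115, 210, 201 and 158 CPM in P14, the adult control, 24 h, 48 h and 96 h. Fzd4, a Frizzled receptor of endothelial cells, stood at 215, 191, 323, 448 and 251 CPM. Axin2, a feedback inhibitor and standard target of beta-catenin, had only 1, 1, 2, 0 and 2 UMIs.

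In the main fit of depth-matched pairs (all 5 libraries, with a filter on low counts), members had no gene past the threshold against zero barcodes. The central-side genes tested had estimates on the side of the members. Within each library, members were paired with zero barcodes on depth (5, 14, 50, 18 and 20 pairs in P14, the adult control, 24 h, 48 h and 96 h), and the summed counts of the 5 libraries were tested with edgeR's quasi-likelihood test and the library as a block. Of 1660 genes tested, 0 passed a Benjamini-Hochberg adjusted p of 0.05 (0% called), 194 had an unadjusted p under 0.05, and DESeq2 called 0. In the narrower set of barcodes with endothelial UMIs in excess of free RNA, 0 of 817 genes passed (0% called), with 88 at an unadjusted p under 0.05 and 0 by DESeq2. Without the matching on depth, where members were the deeper class, edgeR called 798 genes and 526 in the narrower set. Depth was also made equal by thinning instead of pairing, which gave 189 of 498 and 195 of 518 genes at 1000 UMIs, and 13 of 398 and 34 of 401 in barcodes of 2000 to 8000 UMIs thinned to 2000, an alternative added after seeing the data. Among the depth-matched fits, 11 and 6 genes were called without 48 h, 23 and 15 without a filter on low counts, and 1 and 2 without hepatocyte-rich barcodes.

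Kit and Thbd had the highest estimates among the central-side genes, and neither passed in the main fit of depth-matched pairs. Of the 1660 genes tested, 110 were higher and 49 lower in members of all 5 libraries (9.58%). Kit, the stem cell factor receptor, stood at 1004 CPM in paired members against 0 in zero barcodes of P14, 538 against 61.4 in the adult control, 803 against 377 at 24 h, 600.0 against 250 at 48 h and, at 96 h, 570 against 106. Members were higher in 5 of 5 libraries, with a log2 difference of 1.78 ± 0.40 (SE, n = 5 libraries) and an edgeR quasi-likelihood Benjamini-Hochberg adjusted p of 0.163. Thbd stood at 91.3 against 94.2 CPM in P14, 683 against 184 in the adult control, 2600 against 986 at 24 h, 956 against 47.7 at 48 h and, at 96 h, 291 against 266. It was higher in members of 4 libraries, close to equal in P14 and at 96 h, with a log2 difference of 1.54 ± 0.42 (SE, n = 5) and an adjusted p of 0.232 by the same test. Kit passed without 48 h (1.99, adjusted p = 7.37e-06), without depth matching (2.2, 0.00796), without a filter on low counts (1.70, 0.00402) and after thinning to 1000 UMIs (1.31, 0.00254). Thbd passed without depth matching (2.59, adjusted p = 0.0203) and in the 2000 to 8000 UMI barcodes thinned to 2000 (2.23, 0.0209). Without hepatocyte-rich barcodes Kit stood at 1.16 (adjusted p = 0.418) and Thbd at 1.28 (0.0734), and in the excess set Thbd passed there (1.27, 0.0267).

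The central-side and portal-side gene lists lay on opposite sides of the fitted value for all genes, whose median was -0.03 with 47.0% above 0. Of 14 central-side genes 6 were abundant enough to test, and all 6 (Kit, Thbd, Ptgs1, Gja4, Fabp4 and Plxnc1) had estimates above 0, with a median log2 difference of 1.09. Of 14 portal-side genes 7 were tested and all 7 estimates were below 0, with a median of -0.74. The lowest were Ntn4, a netrin, at -1.42 ± 0.58 and Msr1, a scavenger receptor, at -1.29 ± 0.43 (SE, n = 5), both lower in members of 4 libraries and higher at 48 h. No gene of either list passed the threshold in these fits, and in the excess set 6 central-side and 6 portal-side genes gave medians of 1.03 and -0.79. Without hepatocyte-rich barcodes all 6 central-side estimates were above 0 (median 0.67) and all 5 portal-side ones below 0 (median -0.93). The portal-side gene Ly6a then passed, at -1.58 (adjusted p = 0.0111, against -1.25 and 0.468 with them), and Ntn4 passed without 48 h (-2.03, adjusted p = 0.000382). The lists were chosen with earlier results of these data known, so their direction is not independent evidence.

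No gene of the other groups passed in the main fit of depth-matched pairs. Of the sinusoidal genes 13 were tested, 12 with estimates above 0 and a median of 0.45, and of the pan-endothelial genes 13, with 12 above 0 and a median of 0.50. Hepatocyte genes gave 1 of 18 above 0 and a median of -0.47, and the 7 tested VEGF and angiopoietin receptor genes were all above 0 with a median of 0.48, the gate gene Kdr among them. Without hepatocyte-rich barcodes the medians of the sinusoidal, pan-endothelial, hepatocyte and VEGF and angiopoietin lists were 0.35, 0.24, -0.25 and 0.17. Wls had an estimate of 0.02 and Fzd4 of 0.56. Over all 1660 genes tested, 9.58% had the same direction in all 5 libraries. Ctnnb1, the beta-catenin gene, stood at 183 against 283, 186 against 225, 136 against 206, 222 against 274 and 212 against 414 CPM, lower in members of all 5 libraries, with a log2 difference of -0.71 ± 0.30 (SE, n = 5) and an edgeR quasi-likelihood Benjamini-Hochberg adjusted p of 0.395. Among genes on no such list and chosen after their values were seen, Plpp1 (1.40 ± 0.31) and F2r (1.25 ± 0.31), a thrombin receptor, were higher in members of 5 libraries and Fabp5 (-1.12 ± 0.28), a fatty acid binding protein, lower in 5, with adjusted p of 0.163, 0.228 and 0.228.

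**Figure D2:**
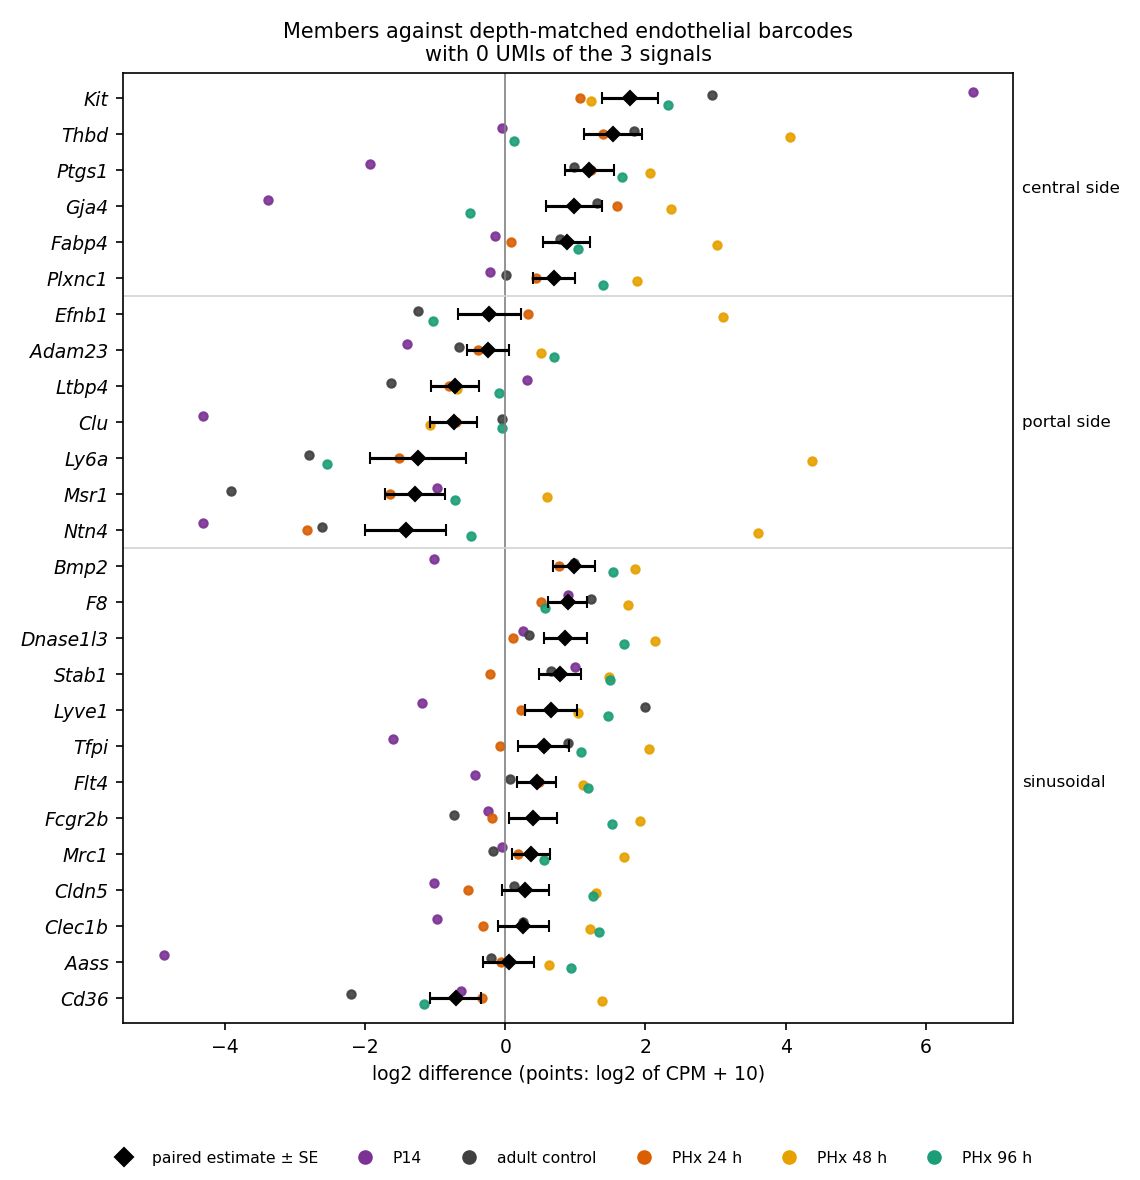
Depth-matched members against zero barcodes for central-side and portal-side genes: each point is 1 library's difference in log2(CPM + 10), members minus zero barcodes, and P14 points rest on few UMIs. Kit lies above 0 in 5 of 5 libraries and Msr1 and Ntn4 below 0 in 4 of 5.

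Within the members, those with Wnt9b or Rspo3 differed from those with Wnt2 alone in Thbd, Fmo1 and Pcdh17. Both classes were paired on depth within libraries (4, 1, 27, 11 and 6 pairs in P14, the adult control, 24 h, 48 h and 96 h). Of 998 genes tested, edgeR's quasi-likelihood test with Benjamini-Hochberg adjustment called 3 (0.301% called), 67 had an unadjusted p under 0.05, and DESeq2 called 0. In all 5 libraries 28 of the 998 genes were higher and 37 lower (6.51%). Most pairs came from 24 h and 48 h, and the adult control gave a single pair. Without hepatocyte-rich barcodes 9 of 592 genes were called besides gate genes, 3 higher and 6 lower.

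Thbd was higher in members with Wnt9b or Rspo3. It had 20 against 4 UMIs in P14, 17 against 0 in the adult control, 471 against 282 at 24 h, 101 against 52 at 48 h and, at 96 h, 15 against 2. The direction was the same in 5 of 5 libraries, with a log2 difference of 1.34 ± 0.31 (SE, n = 5) and an edgeR quasi-likelihood Benjamini-Hochberg adjusted p of 0.0274. The call was lost without P14 (0.150), without the adult control (0.0929), without 48 h (0.0975), without the block (0.999), without depth matching (0.246), without barcodes with mesenchymal UMIs (0.0847) and under DESeq2 (0.0671), each an adjusted p. Without hepatocyte-rich barcodes it held, at 1.28 (adjusted p = 0.00108). Fmo1, a flavin-containing monooxygenase, had 8 against 6, 5 against 2, 15 against 3, 20 against 6 and 21 against 5 UMIs, higher in 5 of 5 libraries, with a log2 difference of 1.61 ± 0.37 (SE) and the same adjusted p. Its call was lost without any 1 of the adult control (0.0929), 24 h (0.138), 48 h (0.0975) or 96 h (0.226), without the block (0.999), without depth matching (0.205) and under DESeq2 (0.153). It had too few UMIs to be tested without hepatocyte-rich barcodes, without barcodes with mesenchymal UMIs, with mitochondrial UMIs under 15%, Alb under 1% or at least 5 of 7 gate genes, and after thinning.

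Pcdh17, a protocadherin, was lower in members with Wnt9b or Rspo3. It had 1 against 24 UMIs in P14, 0 against 0 in the adult control, 30 against 49 at 24 h, 18 against 35 at 48 h and, at 96 h, 6 against 38, with a log2 difference of -1.55 ± 0.33 (SE, n = 5) and an edgeR quasi-likelihood Benjamini-Hochberg adjusted p of 0.0196. It was lower in the 4 libraries where it was seen, and it is named as 1 of only 3 calls although its direction could not be read in the adult control. The call for Pcdh17 was lost without any 1 of P14 (0.150), the adult control (0.0929), 48 h (0.0975) or 96 h (0.0569), without the block (0.999), without depth matching (0.735), without barcodes with mesenchymal UMIs (0.143) and under DESeq2 (0.167), each an adjusted p, while its direction held in all of these. Without hepatocyte-rich barcodes it was called, at -1.58 (adjusted p = 0.000596).

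Sinusoidal genes were lower in the members with Wnt9b or Rspo3 by estimate, and whether any was called depended on the barcodes and libraries used. All 13 tested sinusoidal genes had estimates below 0, with a median log2 difference of -0.53, where the median over all genes was -0.01 with 48.3% above 0. Lyve1, a hyaluronan receptor, had 5 against 42 UMIs in P14, 0 against 13 in the adult control, 23 against 40 at 24 h, 29 against 52 at 48 h and, at 96 h, 19 against 21. Its log2 difference was -1.24 ± 0.32 (SE, n = 5), with an edgeR quasi-likelihood Benjamini-Hochberg adjusted p of 0.0621. Fcgr2b, an IgG receptor, was lower in 5 of 5 libraries at -0.90 ± 0.24 (adjusted p = 0.0621). Plvap, a protein of endothelial diaphragms, was higher in 5 of 5 at 1.19 ± 0.36 (adjusted p = 0.122). These 3 genes were chosen after their values were seen, and 6.51% of all genes tested had the same direction in all 5 libraries. Without hepatocyte-rich barcodes, an alternative added after seeing the data, each passed, with Lyve1 at -1.21 (adjusted p = 0.00859), Fcgr2b at -0.91 (0.0117) and Plvap at 1.18 (0.0298). In that fit 4 of 11 sinusoidal genes were called lower (Fcgr2b, Lyve1, Mrc1 and Stab1), and the same 4 of 11 with mitochondrial UMIs under 15% or Alb under 1%. Of all genes tested, 8 of 592, 8 of 596 and 8 of 576 were called lower in these fits, gate genes included. Lyve1 alone of that list was called without 24 h, without 96 h or without a filter on low counts, and none in the other 10 alternatives. Of the 6 central-side genes tested, 4 had estimates above 0, with a median of 0.47 and 1 call, Thbd.

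**Figure D3:**
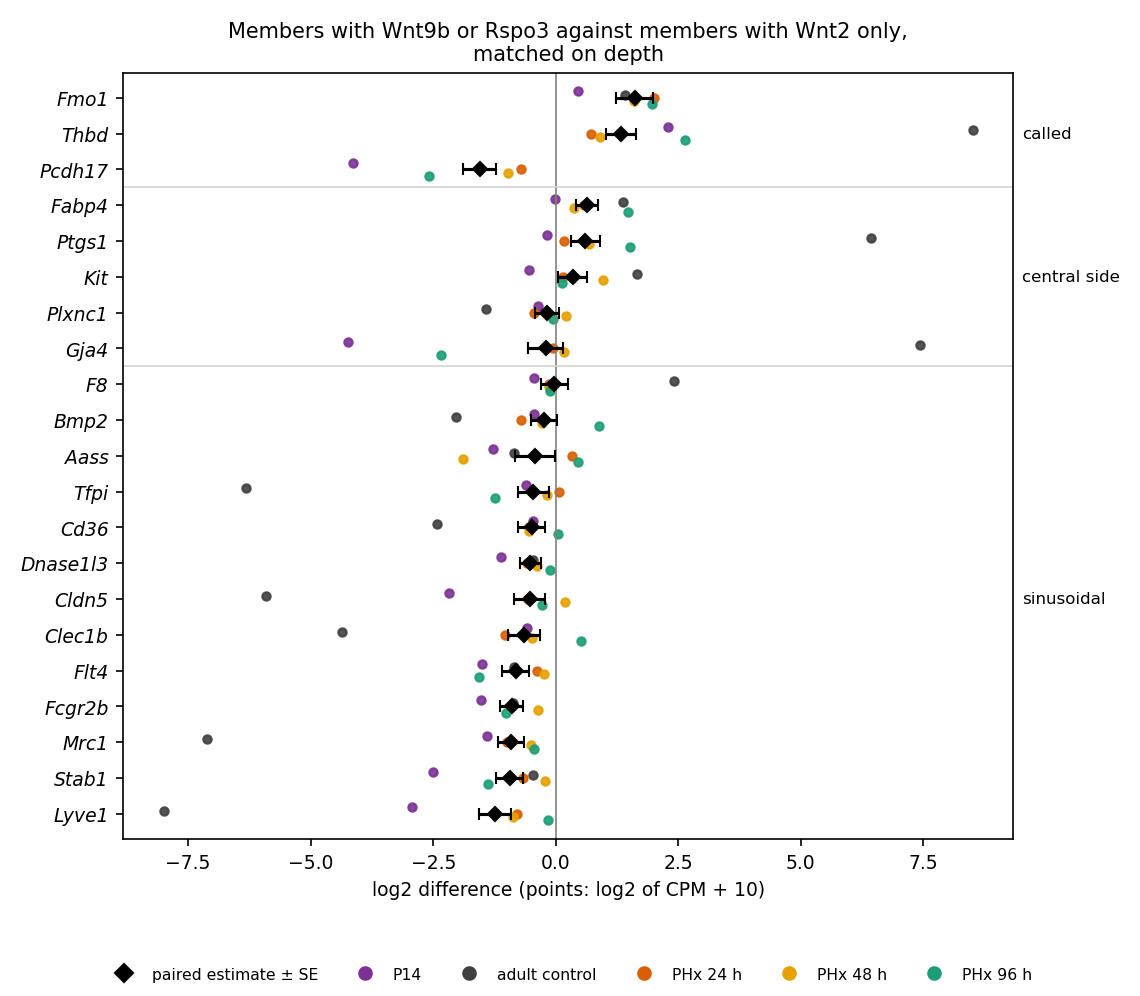
Depth-matched members with Wnt9b or Rspo3 against members with Wnt2 alone: each point is 1 library's difference in log2(CPM + 10), and the adult control point rests on 1 pair. Thbd and Fmo1 lie above 0 in 5 of 5 libraries, and Lyve1 and Fcgr2b below 0 in 5 of 5.

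In P14 most signal RNA sat in 3 members, chosen after their values were seen as those with at least 10 UMIs of the matrix gene Fbln2. They held 127 of the 129 Rspo3 UMIs, 13 of 15 Wnt9b UMIs and 54 of 91 Wnt2 UMIs of the 16 P14 members. They also held all 120 UMIs of Eln (elastin), 111 of 116 of Fbln2, all 46 of Vwf (von Willebrand factor), all 51 of Edn1 (endothelin 1), all 30 of Bmp4 and all 25 of Mgp. These genes were picked as ones whose UMIs sat in few members, so their high shares were built in. Of them Vwf and Edn1 belong to a list of 14 vein and large-vessel genes, whose other genes are not given for these members. In P14 members 9 of the 14 were abundant enough to compare, with a median log2 ratio over the adult control of 0.23, 2 at least 2-fold higher and 1 lower. The 2 higher genes were Vwf and Edn1 themselves, under 100 CPM in the adult control and abundant enough only through P14. Over all genes compared, 15.2% were at least 2-fold higher in P14 members and 16.7% lower. By contrast the 3 members held 6 of 190 Kdr UMIs, 12 of 46 Thbd UMIs and 20 of the 1107 UMIs of sinusoidal genes, with 300 of 1090 pan-endothelial UMIs.

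The 3 members were not alike in every gene. Rspo3 had 70, 11 and 46 UMIs in them, Eln 34, 85 and 1, Fbln2 33, 63 and 15, Vwf 15, 19 and 12, and Edn1 27, 0 and 24. Their depths were 15771, 14921 and 11424 UMIs, and 8 of the 15 mesenchymal-list UMIs of P14 members were in them. The P14 levels of Wnt9b and Rspo3 over all endothelial barcodes are largely those of these 3 members.

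**Figure D4:**
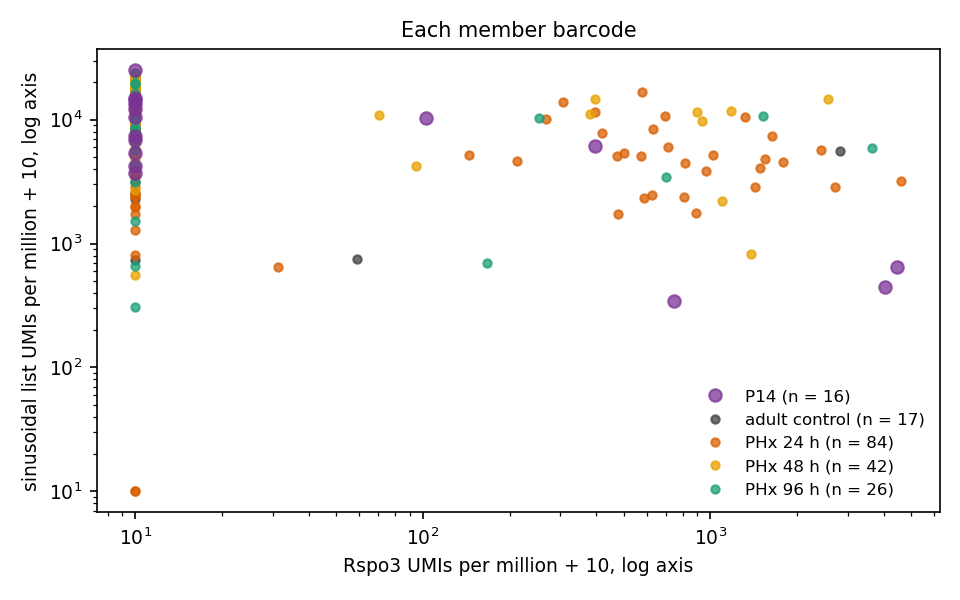
Each point is 1 member, with Rspo3 and summed sinusoidal genes as UMIs per 1000000 of all UMIs plus 10 on log axes, coloured by library. The P14 members with the most Rspo3 UMIs (70, 46 and 11) lie low on the axis of sinusoidal genes.

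Between libraries, central-side genes stood higher in members at 24 h and 48 h after PHx than in adult control members. Ratios are log2((CPM + 10)/(CPM + 10)) over the adult control for genes with a mean of at least 100 CPM over both libraries (usable genes), and carry counting error only. All 4 comparisons share the adult control library. At 24 h, 12.9% of 2043 genes were at least 2-fold higher and 13.0% at least 2-fold lower, and at 48 h 16.5% and 14.6% of 2064. Of 9 usable central-side genes, 6 were at least 2-fold higher at 24 h (median log2 ratio 1.79) and 7 at 48 h (median 1.5), and 0 were 2-fold lower at either time, beside medians over all genes of 0.08 and 0.18. This filter admits a gene that is high in 1 library only, as it did Rab3b and Lhx6, which were under 100 CPM in the adult control, so such counts lean to higher genes. Of the 7 central-side genes at 100 CPM or more in the adult control itself, a filter added after seeing the data that leans to lower genes, 4 were at least 2-fold higher at 24 h (median 1.39) and 5 at 48 h (median 1.41), and 0 were lower, beside 7.33% and 9.26% of all such genes higher. In zero barcodes the same list had medians of 0.98 and -0.51. At 48 h, 50393 of the 260736 UMIs of zero barcodes came from the 16 with an excess of endothelial UMIs over free RNA. In members without hepatocyte-rich barcodes 6 of 9 genes were at least 2-fold higher and 0 lower at each time, with medians of 1.51 and 1.11. The portal-side list had 6 usable genes, 3 of them above 0 and 1 at least 2-fold higher and 2 lower at each time. The medians were 0.08 and 0.01 (0.14 and -0.12 over 7 genes without hepatocyte-rich barcodes). The higher gene, Ly6a, was under 100 CPM in the adult control. Of the 5 portal-side genes at 100 CPM or more there, 0 were at least 2-fold higher and 2 lower at each time. Their medians were -0.01 and -0.19, and 14.9% and 17.1% of all such genes were lower. At 96 h 7.55% of genes were at least 2-fold higher and 9.09% lower. Of 7 usable central-side genes 1 was then higher and 0 lower, with a median of 0.34. Without hepatocyte-rich barcodes 1 central-side gene was higher and 2 lower, with a median of 0.17.

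Thbd varied widely between libraries. Members stood at 299 CPM (219 to 399) in P14, 433 (300.1 to 606) in the control adults, 3664 (3464 to 3872) at 24 h, 1240 (1104 to 1388) at 48 h and, at 96 h, 215 (145 to 308), with a UMI in 9, 7, 75, 30 and 12 members. The 24 h level lay above every other group and 48 h above the remaining 3, beyond counting error, while 96 h and the adult control overlapped narrowly. The log2 ratios over the adult control were -0.52 in P14, then 3.05 (24 h), 1.5 (48 h) and -0.98 (96 h). Zero barcodes stood at 22.6, 61.3, 548, 19.3 and 146 CPM, so the higher level at 24 h was also seen there. At 48 h, zero barcodes with an excess of endothelial UMIs held 50393 of the 260736 UMIs summed. In P14 a single zero barcode held 88962 of 186822 UMIs, and platelet genes had 915 UMIs in that class. The zero levels of these libraries are thus not those of typical endothelial cells, and none without hepatocyte-rich barcodes are given.

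Of the other central-side genes, 6 were higher at 24 h and 48 h than in the other 3 groups. Kit stood at 319, 344, 917, 932 and 503 CPM in members of P14, the adult control, 24 h, 48 h and 96 h, and Gja4, a connexin, at 71.6, 178, 891, 830 and 223. Plxnc1, a semaphorin receptor, stood at 416, 446, 1566, 1811 and 740. Rab3b, a vesicle GTPase, stood at 52.0, 12.7, 282, 394 and 115, and Lhx6, a LIM homeobox factor, at 150, 12.7, 303, 279 and 71.8. Ptgs1, a cyclooxygenase, stood at 338, 293, 515, 637 and 373. Rab3b and Lhx6 rest on 1 UMI each in the adult control. Fabp4, a fatty acid binding protein, stood at 4092, 1020, 1743, 1889 and 2442, above the adult control at both times and highest in P14. Other genes of the list did not rise. Cdh13 had 43, 16, 68, 47 and 15 UMIs, Vwf 46, 6, 5, 6 and 0 and Selp 8, 5, 23, 5 and 3. The members' totals were 153698, 78463, 343615, 243504 and 139257 non-mitochondrial UMIs. As shares of these, Cdh13 and Vwf lay below the adult control at 24 h and 48 h, and Selp at 48 h.

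Kdr did not follow that pattern. Members stood at 1236, 1274, 1216, 2435 and 1486 CPM in P14, the adult control, 24 h, 48 h and 96 h, against 390, 764, 504, 290 and 816 in zero barcodes. Its log2 ratio over the adult control was -0.04 in P14, then -0.07 (24 h), 0.93 (48 h) and 0.22 (96 h), and the sign in P14, at 24 h and at 96 h turned with the scaling or weighting of barcodes. As a gate gene it helped to choose both classes. The limits on the summed zero levels in P14 and at 48 h, given for Thbd, hold here too.

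Among genes at 2 or more times their free-RNA level, the one furthest above the adult control at 24 h was Adamts1, a secreted protease, with 275 against 1 UMIs, a ratio of 62.8 (11.2 to 2489). Hif1a, the oxygen-regulated transcription factor, ranked next among them with 63 against 0 UMIs, at least 4.8-fold higher over a floor of 3 counts. Lcn2, the secreted protein lipocalin 2, had a larger ratio, with 287 against 0 UMIs, but its 835 CPM in members lay below its free-RNA level of 2504 CPM, and it is named after its values were seen. Ackr3, a scavenging receptor of the chemokine Cxcl12, stood at 27.2 (4.78 to 1082). Klf4, a flow-responsive transcription factor, lower in the ranking, stood at 21.0 (3.68 to 839), and both rest on 1 UMI in the adult control. Cldn5, a tight-junction protein, stood at 0.266 (0.178 to 0.397) of the adult level, Ltbp4, a portal-side gene that binds latent TGF-beta, at 0.375, and Gpihbp1, the capillary anchor of lipoprotein lipase, at 0.425. Zero barcodes moved the same way, with log2 ratios of -1.38, -1.86 and -1.44 for these 3 genes. For Adamts1, Hif1a, Ackr3 and Klf4 their ratios were 1.99, 1.02, 1.59 and 0.94. Of 10 usable endothelial transcription factors 5 were at least 2-fold higher and 0 lower, but 3 of these 5 (Klf4, Gata4 and Lhx6) were usable only through their 24 h level. Of the 7 at 100 CPM or more in the adult control 2 were at least 2-fold higher and 0 lower, with a median log2 ratio of 0.28. Over all usable genes 12.9% were higher and 13% lower, and 7.33% and 14.9% of those at 100 CPM or more in the adult control. The sinusoidal genes did not shift upward, with 0 of 13 at least 2-fold higher, 2 lower and a median of -0.24 (-0.50 without hepatocyte-rich barcodes).

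At 48 h Adamts1 and Klf4 were still high, at 37.7 (6.6 to 1502) and 28.4 (4.96 to 1133) times an adult level of 1 UMI each. Fosb, an immediate early gene, had 65 against 0 UMIs, at least 6.98-fold higher over the same floor, and of 11 usable tissue-handling genes 7 were at least 2-fold higher and 1 lower (median 1.1), and 3 of the 7 at 100 CPM or more in the adult control. Over all genes at 48 h 16.5% were at least 2-fold higher and 14.6% lower, and 9.26% and 17.1% of those at 100 CPM or more in the adult control. The part of handling in the values at 48 h was not tested. Ltbp4 stood at 0.184 (0.0931 to 0.352) of the adult level, the lowest ratio among the genes named at that time. In zero barcodes the log2 ratios of Adamts1, Klf4, Fosb and Ltbp4 were 0.10, -1.69, 0.65 and -3.34. Of 11 usable transcription factors 7 were at least 2-fold higher and 0 lower, 4 of them (Klf4, Gata4, Lhx6 and Fli1) usable only through their 48 h level. Of the 7 at 100 CPM or more in the adult control 3 were at least 2-fold higher and 0 lower (median 0.92). Sinusoidal genes, all 13 above that level in the adult control, had a median of 0.53, and 0.13 without hepatocyte-rich barcodes.

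Of 32 angiocrine genes 9 were usable at 24 h and at 48 h. The list is mostly of secreted signals but also holds binding proteins, the nitric oxide synthase Nos3 and the membrane protein Sema6a. At 24 h 3 were at least 2-fold higher and 2 lower, and at 48 h 3 and 1, with 6 above 0 at each time. Without hepatocyte-rich barcodes the counts were 4 and 3 of 11 at 24 h and 3 and 1 of 10 at 48 h, and among the 8 genes at 100 CPM or more in the adult control 2 and 2, and 2 and 1. Bmp2, which hepatocytes read to set hepcidin, stood at 423, 1071, 1691, 2657 and 1170 CPM in members of P14, the adult control, 24 h, 48 h and 96 h. Hgf, the ligand of the hepatocyte receptor Met, stood at 71.6, 102, 215, 189 and 93.4, and Inhbb, an activin subunit, at 45.5, 38.2, 265, 177 and 64.6. All 3 were higher at 24 h and 48 h than in the adult control, where Hgf and Inhbb rest on 8 and 3 UMIs, and Bmp2 was lowest in P14. Hgf and Inhbb were chosen after their values were seen. The 2 genes at least 2-fold lower at 24 h were Igfbp7, at 0.449 (0.375 to 0.539) of the adult level, and Igfbp4. Igfbp4 had 249 of 343615 non-mitochondrial UMIs at 24 h against 122 of 78463 in the adult control. Of 7 usable Wnt secretion genes 1 was at least 2-fold higher in each of P14, 24 h, 48 h and 96 h and 0 were lower, with 7, 7, 7 and 6 above 0 and medians of 0.62, 0.73, 0.64 and 0.66. The background was 15.2%, 12.9%, 16.5% and 7.55% of genes at least 2-fold higher, from which 1 gene of 7 cannot be told apart, and that gene (Vps35) was under 100 CPM in the adult control. Without hepatocyte-rich barcodes the medians were 0.21, 0.54, 0.54 and 0.44.

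At 96 h 335 genes were 2-fold apart from the adult control, fewer than in P14 (646), at 24 h (529) or at 48 h (643). With the mean of per-barcode CPM there were 510, against 802, 624 and 749. Plvap stood at 0.319 of the adult level, the endoplasmic reticulum chaperone gene Hsp90b1 at 0.436 and Stab2 at 0.627. Zero barcodes had log2 ratios of -0.18, -1.90 and -0.97 for them. Stab2 is a gate gene and helped to choose both classes. Several genes named there rested on 1 member. Of the 237 Oat UMIs 214, of the 223 Glul UMIs 191 and of the 31 Cyp4a10 UMIs 28 came from a barcode with 19084 UMIs, 28.0% mitochondrial UMIs and 7.62% of its UMIs from hepatocyte genes, singled out after its values were seen. With mitochondrial UMIs under 15%, which leaves this barcode out, the log2 ratios of Oat and Glul went from 3.64 and 2.68 to -0.64 and -0.13.

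In P14, 15.2% of 2026 genes were at least 2-fold higher than in the adult control and 16.7% lower. The named genes were Xist, at least 47.5-fold higher over the floor, the histone gene Hist1h2ap, at least 36.6-fold, the proliferation genes Mki67 and Top2a, at least 15.7-fold and 14.0-fold, and Eln, at least 20.4-fold and held by 3 members. Hist1h2ap, Mki67 and Top2a were also seen in only 3 members each, and the 2 deepest held 210 of 215, 91 of 92 and 81 of 82 of their UMIs. Lower were Cyp4b1 at 0.247, Timp3, an inhibitor of matrix proteases, at 0.332, Bmp2 at 0.395 and the sinusoidal lectin Clec4g at 0.497 of the adult level. These 4 genes were also lower in zero barcodes of P14, with log2 ratios of -3.15, -3.50, -0.99 and -2.44. Clec4g is a gate gene and helped to choose both classes. The central-side list had 2 of 8 usable genes at least 2-fold higher and 1 lower, with a median of 0.05. Without hepatocyte-rich barcodes 2 were higher and 2 lower, with a median of -0.40. Vwf, 1 of the higher genes, was under 100 CPM in the adult control and held by 3 members. Of the 7 genes at 100 CPM or more there, 1 was higher and 1 lower, with a median of -0.10. Of all such genes 7.07% were higher and 19.8% lower.

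**Figure D5:**
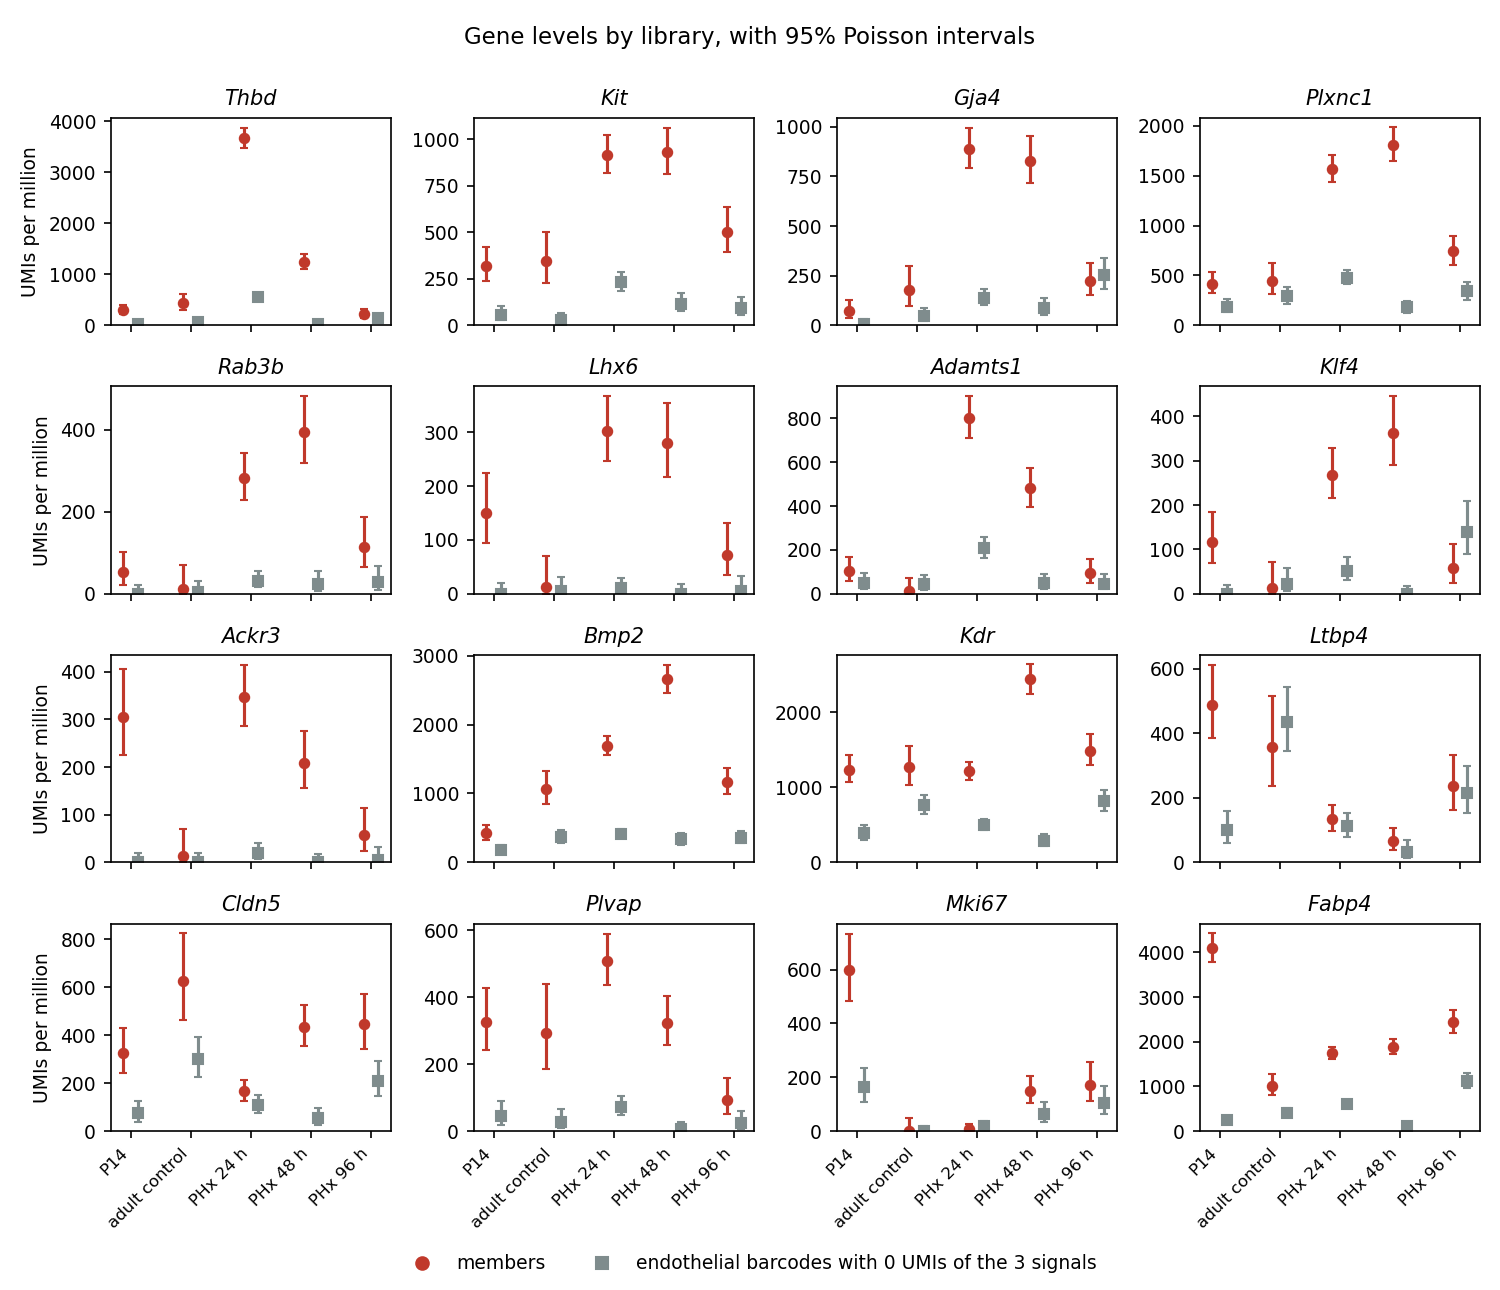
Members and zero barcodes by library for 16 genes, as CPM with exact Poisson 95% intervals. Thbd in members is highest at 24 h (3664), Adamts1 is high at 24 h and 48 h, and Kdr is highest at 48 h (2435).

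Mitosis-positive members were few. A barcode with at least 3 of 20 mitosis genes was counted as mitosis-positive, which held for 3 of 16 members in P14, 0 of 17 in the adult control (exact upper limit 19.5%, and 17.6% as 3 counts of the total), 1 of 84 at 24 h, 2 of 42 at 48 h and, at 96 h, 5 of 26 (19.2%, 6.55% to 39.4%). In zero barcodes the counts were 4 of 23, 1 of 62, 5 of 97, 10 of 24 and 11 of 71. Hepatocyte-rich barcodes held 5 of the 5 positive zero barcodes at 24 h, 8 of 10 at 48 h and 5 of 11 at 96 h, and 1 positive member each at 48 h and 96 h. Without them the counts were 1 of 81 members and 0 of 79 zero barcodes at 24 h, 1 of 41 and 2 of 16 at 48 h and, at 96 h, 4 of 22 and 6 of 41, and no difference between the classes was tested. Of the 24 zero barcodes at 48 h, 8 had no excess of endothelial UMIs over free RNA, and 3.78% of the non-mitochondrial UMIs of these 24 were from erythroid genes. The 2 deepest P14 members held 384 and 275 mitosis-list UMIs, 1.44% and 1.26% of their totals, and 28 of the 36 Mki67 UMIs at 48 h were in 1 member. At least 3 of 20 replication genes were found in more members, 9 of 16, 2 of 17, 26 of 84, 19 of 42 and 6 of 26. In zero barcodes these counts were 5 of 23, 5 of 62, 20 of 97, 10 of 24 and 6 of 71. Members were deeper, and depth was not matched in these counts.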

How the data were processed

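For each of the 5 libraries the authors deposited a sparse matrix of UMI counts per gene and barcode, raw whole numbers without normalization, with 31053 genes and 6794880 barcodes, so empty droplets are included. Per the submitters' processing notes, bcl2fastq 2.17.1.14, Cell Ranger and Seurat 3.1 were used with build mm10, and the file headers give 3.0.2 as the version of the program that wrote them. No filter is given in the sources used here.

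Members and gene lists were chosen with earlier results of these data known. Free RNA was taken from the 40000 barcodes ranked after the first 20000, and excess barcodes had endothelial UMIs above that profile (Poisson upper tail under 0.001). No doublet caller was run, and the limits on Ptprc and Alb stand in its place. CPM are per 1000000 non-mitochondrial UMIs.

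Classes were paired on log2 UMIs within 0.25. Counts were summed per library and class and tested with edgeR 4.0.16 (filterByExpr, TMM, quasi-likelihood, library as block, Benjamini-Hochberg level 0.05) in R 4.3.3, with DESeq2 1.42.0 as an alternative. The block pairs the classes of 1 library. Code for the tests was first tested on simulated data. Other steps used Python 3.11.15, numpy 2.4.6 and scipy 1.17.1. Named genes in paired tests were to be the 15 smallest p per direction among calls of 1 direction in all 5 libraries, besides members of the central-side, portal-side and Wnt lists. Between libraries they were taken from the 12 most extreme ratios each way with at least 20 UMIs, separate Poisson intervals and at least 2 times the free-RNA level. The labels do not give the number or sex of animals, so spread between libraries includes that between animals.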

Additional observations from a re-analysis of the deposited data

Results flagged for a closer look

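Signal RNA was also seen outside the endothelial barcodes. At 24 h, 6 of 568 immune barcodes had a UMI of Wnt2, more than in the other libraries. Barcodes with only 2 of the 7 endothelial genes were not members, yet some had a UMI of Wnt2, Wnt9b or Rspo3. They were 1 of 5 in P14, 6 of 145 in the adult control and 11 of 82 at 24 h. At 48 h and 96 h they were 4 of 20 and 6 of 67.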

How the results depend on the processing

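In the main fits, with the library as a block, members against zero barcodes gave 0 calls and so did the fits with no replicate block. The latter also called 0 genes between members with Wnt9b or Rspo3 and those with Wnt2 alone. Without depth matching 798 genes were called (331 higher, 467 lower) and 526 in the excess set (205 higher, 321 lower), and after thinning to 1000 UMIs 189 and 195. Without a filter on low counts there were 23, 15 and, for the comparison within members, 12 calls. An alternative added after seeing the data, barcodes of 2000 to 8000 UMIs thinned to 2000, gave 13, 34 and 1, and a second one, leaving out hepatocyte-rich barcodes, 1, 2 and 11 (the last with 2 gate genes). An Alb limit of 1% gave 1 call in the excess set. Within members DESeq2, unmatched barcodes and leaving out mesenchymal UMIs each gave 0, thinning to 1000 UMIs 1, under 15% mitochondrial UMIs 10 and Alb under 1% 12. Leaving out each library gave 0 to 11 calls, 0 to 6 in the excess set, the highest both without 48 h, and 0 to 5 within members, with 1 without P14, 0 without the adult control or 48 h, 5 without 24 h and 4 without 96 h.

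Thinning to 1000 UMIs moved the share with a signal UMI to 7.59% (adult control), 33.2% (24 h) and 13.4% (96 h), and 4000 UMIs to 71.4% in P14. At 24 h it was 67.1% under 15% mitochondrial UMIs and 68.0% without hepatocyte-rich barcodes. Requiring 2 UMIs gave 8.11%, 33.3%, 32.6% and 15.2% in the adult control, 24 h, 48 h and 96 h. Genes 2-fold apart at 96 h numbered 335, and 510 with the mean of per-barcode CPM. Signs turned for Kdr in P14 (0.0031) and at 96 h (-0.0127) and for Malat1 at 48 h (0.37) with that mean, for Kdr at 24 h in excess barcodes (0.0934) and with TMM factors (0.0728), and for Oat (-0.64) and Glul (-0.13) at 96 h under 15% mitochondrial UMIs. Without hepatocyte-rich barcodes Oat (-0.53), Cyp4a10 (-0.56) and Glul (-0.19) turned at 96 h. The cause was not tested. P14 and the adult control had the fewest members (16 and 17), which limits their values.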
